A study of Mus musculus with 13 samples.

Results

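The insertions described here are the chromosome 6 sites of 1 pool of mouse embryonic stem cells in which a Sleeping Beauty transposon had been mobilized out of its home site. They were taken as every line of that pool's deposited list on chromosome 6, with lines within 10 bp of a neighbour joined into 1 site at the line with the most reads. The rule gave 244 sites of 746 in the whole pool. The reference was the 1755 chromosome 6 sites, of 31146 in all, of a second pool whose transposons had come from transfected multi-copy plasmids and so had no chromosomal home.

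Both pools were F123 cells, a CastX129 hybrid line grown in 2i and LIF medium, with a genotype given as wild type. A control library of F123 cells without transposons and 9 clonal lines of a Rad21-dTag genotype were sequenced with the same assay, the control in the run of the pools and the clones in another. The label of the remobilized pool reads TRACK-IT post-remobilization, the design text states that Sleeping Beauty was expressed in it, and neither gives the time allowed nor the number of cells that carried a moved copy. Each group was 1 library, so every test below compares these libraries, with sites as its units, and not the conditions. The parental line was not analysed here.

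Sleeping Beauty belongs to the Tc1/mariner family of DNA transposons and moves by excision and reinsertion. Its transposase cuts the element out between its inverted terminal repeats and places it at a TA dinucleotide, which is duplicated at the new site. Elements launched from a chromosome are known to land often near their donor locus, a behaviour called local hopping, whereas elements launched from plasmids enter the genome from outside any chromosome. The sample titles call the assay T7 in situ transcription. In it, T7 RNA polymerase starts from a promoter inside the transposon on genomic DNA and runs out through the repeat into the flanking sequence. A read across the junction places the insertion.

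The deposited list gives positions without bases. Sequence could be read from GENCODE M21 transcripts of GRCm38 where a site lay inside an exon, which held for 16 of the 244 sites. The 7 with the most reads in exons of protein-coding genes are printed because they show the target dinucleotide of the transposon, both beside the home site and far from it. Each line gives the plus strand of GRCm38, 5′ to 3′, 14 bases to either side of the deposited base, which is the 15th letter. Capitals mark the TA nearest the commonest place.
Hnrnpa2b1, chr6:51464640-51464668, 38 reads, minus: ataagatatttgtTAtataaagtctattc
Hnrnpa2b1, chr6:51463423-51463451, 8 reads, minus: ggaagaagcttaaTAtctgctccttccac
Mansc4, chr6:147075650-147075678, 7 reads, plus: ctccctacactcaTAgcttttagaatccg
Nfe2l3, chr6:51457785-51457813, 6 reads, plus: gaccataggactaTAgctggctttcatgt
Chmp3, chr6:71559031-71559059, 5 reads, plus: tgaagatggggaatgTAggacttcttcac
Mxd1, chr6:86667525-86667553, 5 reads, plus: caggggctacacaTAtagtgcttgtggga
Nfe2l3, chr6:51436732-51436760, 3 reads, plus: cgagagcactgcaTAcattccatgccctt

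The target dinucleotide, with at least 1 of its bases within 2 bp of the deposited one, was present at 16 of 16 such sites (95% exact Clopper-Pearson interval 79.4 to 100%) and at 71 of 72 exonic chromosome 6 sites of the plasmid pool (98.6%). The difference of 1.39 percentage points was not past the threshold of 0.05 (two-sided Fisher's exact test, p 1). At 12 of the 16, or 75.0%, the T was the base before the deposited one and the A the deposited base itself, as in 6 of the 7 lines above. The Chmp3 site, in an untranslated part of that ESCRT-III gene, had its TA 2 bases further on. In the plasmid pool 80.6% of the 72 sites had the TA at the commonest place. That place was defined as the commonest among these same 72 sites, so their share is the highest by construction.

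Depth was low. In the remobilized pool 2116 of 2619 reads had a position, and chromosome 6 sites took 790 of these (37.3%), with a median of 2 reads per site and at most 38. Of the 244 sites, 88 had 1 read, 62 had 2, and 94 had at least 3. The plasmid pool held 63031 placed reads, 3648 of them on chromosome 6. The control held 1 read and 0 sites. Reads carry no molecular tags and are not independent molecules, so the intervals cover counting error of sites only, and single-read sites include an unknown number of errors.

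Distances are given from a home position fitted to the clones, whose names state their separations from it. For each clone the chromosome 6 site with the most reads was used. Chromosome 6 took 48.1% of the placed reads in the 20kb clone and at least 85.4% in the others. The position at which the 9 clone sites matched their names best was chromosome 6, 51316894 in GRCm38, and leaving out 1 clone at a time moved it at most to 51316654. It lies between the lincRNA genes Gm32479, which ends 29.0 kb below, and Gm26677, which begins 62.8 kb above. "Above" means toward higher coordinates.

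The members were crowded around this position. Their median distance from it was 775.5 kb, with quartiles at 137.7 kb and 20.3 Mb, against a median of 35.6 Mb and quartiles at 17.8 and 60.2 Mb in the plasmid pool. Of the 244 sites, 16 (6.56%, 3.79 to 10.4) lay within 10 kb, whereas none of the 1755 plasmid pool sites did, a count of 0 that allows at most 0.171%. With positions within 1 kb merged, the count within 10 kb was 5 of 202 (2.48%), a share still past the threshold of the test below (adjusted p 1.30e-05 by Fisher's exact test). Within 1 Mb lay 126 sites (51.6%, 45.2 to 58.1), against 17 in the plasmid pool (0.969%). These 126 sites took 490 of the 790 reads, or 62.0%.

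Each of the 4 distances tested set the pools apart by two-sided Fisher's exact test, with Benjamini-Hochberg adjustment over the 4. Within 10 kb the adjusted p was 1.56e-15, within 100 kb (18.9% against 0.114%) 2.12e-41, within 1 Mb 1.28e-109 and within 10 Mb (63.5% against 13.4%) 2.13e-60. The odds ratio within 1 Mb was 108.5 (62.6 to 198.7). Among sites with at least 5 reads the call within 10 kb was lost (4.26% of 47 sites against 0 of 118, adjusted p 0.0799 by Fisher's exact test), and the other 3 distances stayed past the threshold. Neighbouring sites may come from related cells, so sites may be less independent than the tests assume.

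**Figure D1:**
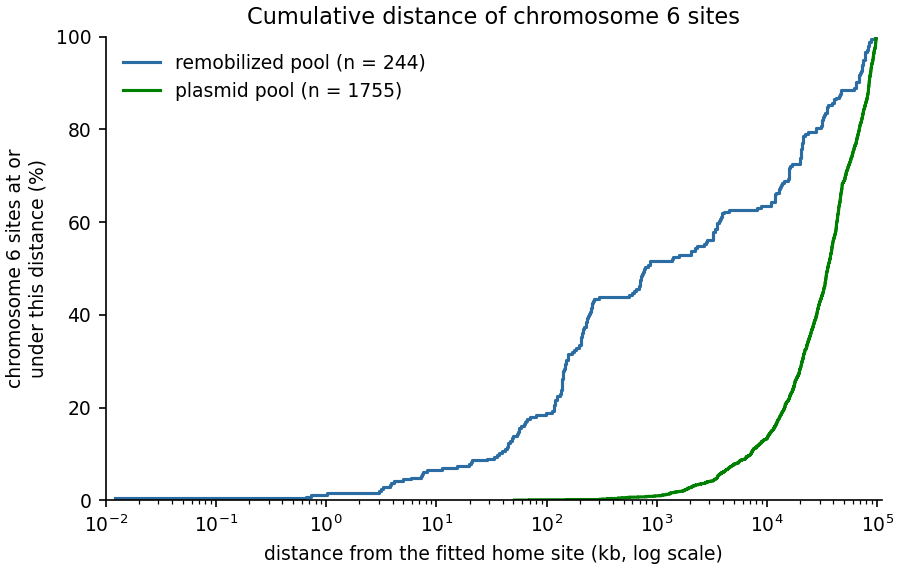
Share of chromosome 6 sites (%) at or under each distance from the fitted home site (kb, log axis), with 1 step per site, for the remobilized pool (244 sites) and the plasmid pool (1755 sites). The remobilized pool reaches 51.6% at 1 Mb, where the plasmid pool is at 0.969%.

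With both sides of home pooled, the density of sites fell from the first 10 kb to the next, stayed near one level out to 300 kb, and fell in each band beyond. It was 800 sites per Mb within 10 kb, then 150 from 10 to 30 kb, 171.4 from 30 to 100 kb and 150 from 100 to 300 kb. From 300 kb to 1 Mb it was 14.3 per Mb, from 1 to 3 Mb 2.75, from 3 to 10 Mb 1.29, from 10 to 30 Mb 1.02 and beyond 30 Mb 0.555. The plasmid pool, counted over the same lengths, ranged between 10.0 and 13.5 per Mb in the 5 bands from 300 kb outward. In the bands nearer than that it had 0, 0, 2 and 1 sites, too few for a density. The first value rests on 16 closely spaced members. With positions within 1 kb merged the 4 bands out to 300 kb held 5, 5, 22 and 36 sites, or 250, 125, 157.1 and 90.0 per Mb, so the height of the first band depends on the merging.

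The 5 sites nearest to the fitted position on the lower side lay 12, 651, 3856, 7299 and 21209 bp away, with 6, 3, 2, 1 and 1 reads. On the upper side the nearest 5 lay 729, 1024, 3046, 3152 and 3295 bp away, with 1, 3, 1, 2 and 2 reads. All 16 sites within 10 kb lay outside annotated genes, 12 of them above the fitted position, and 11 were on the minus strand. None had more than 6 reads. The fitted position is no more exact than the names of the clones, so the site 12 bp away need not be the nearest to the true one, and whether any of these sites is an unmoved copy was not tested.

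Close spacing was common near the home site. Within 1 Mb, 38 of the 125 gaps between neighbouring sites were under 1 kb and the median gap was 2.63 kb, whereas over all chromosome 6 sites of the plasmid pool 57 of 1754 gaps were under 1 kb and the median was 56.1 kb. Gaps shorten with the number of sites, so these values describe each list and no test was made. There were 5 neighbouring members under 100 bp apart, at 24 to 68 bp, each with both sites on 1 strand, and in each at least 1 site had 1 read. Around their own main insertion on chromosome 6, 8 of the 9 clones had weaker lines within 100 bp, all on the strand of the main one and up to 60 bp away. Whether the close members are separate insertions was not tested. With positions within 100 bp joined, a setting chosen after the data were seen, none of the calls in this text changed.

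The plot of sites within 1 Mb shows where the near insertions fell. Above the fitted position, steps of 50 kb out to 300 kb held 23, 7, 25, 8, 17 and 7 sites. The next 50 kb held 1 site, at 300.6 kb, and then came 263.1 kb without a member, in which the plasmid pool had 6 sites. From 563.8 to 876.2 kb there were 16 more sites with 81 reads, over Skap2 and toward the Hoxa genes. Below the fitted position the steps of 50 kb held 11, 5 and 3 sites. Beyond these were 605.3 kb without a member, with 4 plasmid pool sites inside, and then 3 sites between 737.0 and 764.3 kb around Cycs, the gene of cytochrome c.

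**Figure D2:**
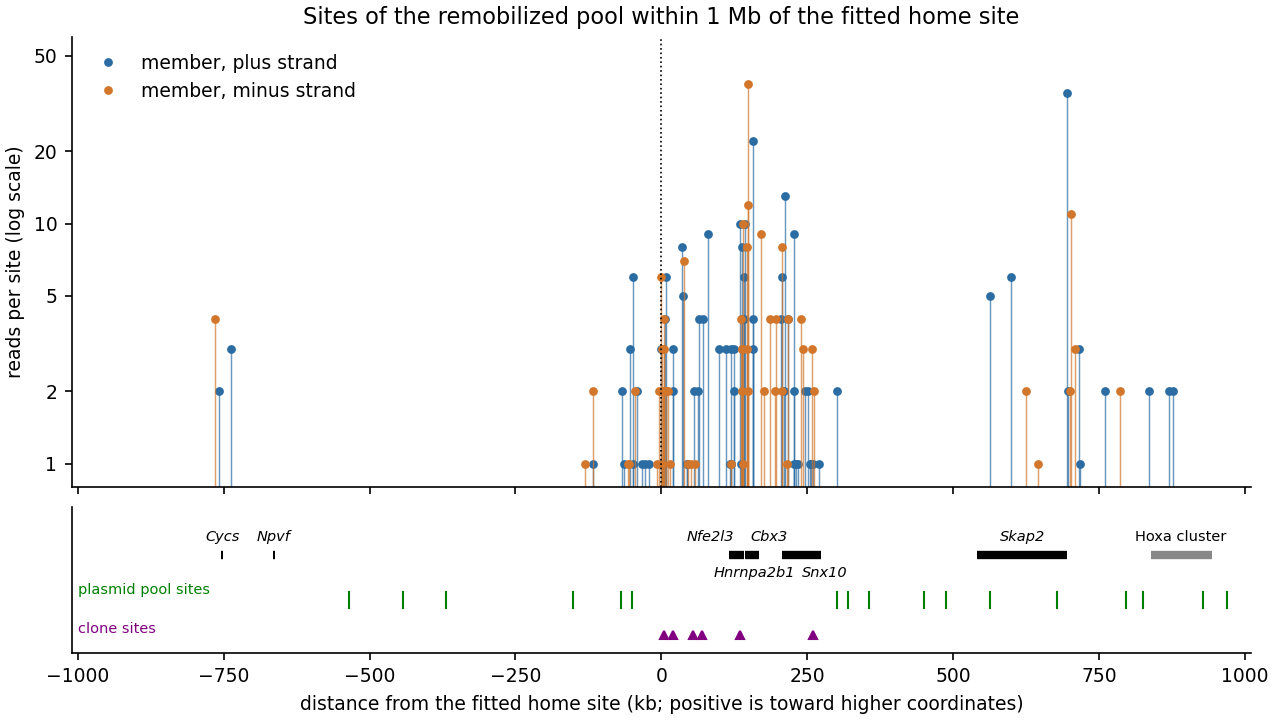
Upper panel: reads per site (log axis) of the 126 remobilized-pool sites within 1 Mb, against signed distance from the fitted home site (kb), coloured by strand. Lower panel: the listed protein-coding genes, the Hoxa cluster, the 17 plasmid-pool sites and the 6 clone sites in this range. Members fill the stretch up to 300.6 kb above the fitted position and reappear over Skap2, while 22 lie below it.

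More near sites lay above the fitted position than below it. Within 300 kb the counts were 87 above and 19 below, and the plasmid pool had 0 and 3 there. Within 1 Mb, 82.5% (104 of 126) lay above, against 64.7% (11 of 17) in the plasmid pool. The difference of 17.8 points was not past the threshold (two-sided Fisher's exact test, odds ratio 2.56, 0.700 to 8.56, adjusted p over 2 tests 0.206), and the 17 reference sites limit this test. Beyond 10 Mb the shares above were 73.0% and 68.2% (Fisher's exact test, adjusted p 0.411), on a chromosome whose sites extend 98.3 Mb above and 48.2 Mb below. With the home position moved to the site with the most reads, the share above within 1 Mb was 40.5% against 68.4%, a difference of -27.9 points (Fisher's exact test, adjusted p 0.0537). That site lies 147.8 kb from the fitted position. With home at the site of the 5kb clone or at the densest window of 10 kb, 5.0 and 4.35 kb from it, 76.2% and 77.0% lay above.

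Genes holding 3 or more members were 7 in number, and 4 of them, all protein-coding, lie side by side between 115.8 and 273.8 kb above the fitted position. Nfe2l3, which encodes a bZIP transcription factor of the cap'n'collar family, held 17 sites with 63 reads in its 26.1 kb. Hnrnpa2b1, an abundant RNA-binding protein of the hnRNP family, held 5 sites with 63 reads in 8.96 kb. Cbx3, the gene of the chromatin protein HP1 gamma, held 3 sites with 29 reads in 13.3 kb. Snx10, a sorting nexin of endosomes, held 20 sites with 58 reads in 66.8 kb. The 4 genes together held 45 of the 126 near sites and 213 reads, 38 in introns and 7 in exons. Genes cover 57.6% of the bases from 100 to 300 kb above home. The plasmid pool had 0 sites in the 4 genes and 0 anywhere within 300 kb above home, too few for a contrast.

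The other 3 genes were farther out. Skap2, which encodes a Src-kinase-associated adaptor, held 5 intronic sites spread over its 155.1 kb, from 563.8 to 694.7 kb, with 1 to 35 reads. Gm44077, a lincRNA gene just beyond it, held 4 sites with 18 reads. The antisense gene Gm38825, 15.9 Mb above home, held 3 sites with 11 reads. In the plasmid pool Skap2 had 2 sites and the other 2 genes had 0. Another 12 genes held 2 members each, among them Gm26677 and Gm6559, lincRNA genes that overlap on opposite strands from 62.8 kb above home, with the same 2 sites and 8 reads. Far from home, Mthfd2, a mitochondrial folate enzyme gene, held 2 sites with 9 reads in 20.2 kb, and Etv6, an ETS repressor gene, 2 with 1 read each in 234.5 kb. Cntnap2, a gene of 2245 kb, held 2 members and 28 plasmid pool sites.

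Lists of genes gave further counts, for sites inside a gene or within 10 kb of it. Of 8 chosen protein-coding genes around the home site, 5 held a member and Cycs had 2 within 10 kb, while Osbpl3 and Npvf, below the home site, had none. The list is not all the genes there: 4921507P07Rik, a protein-coding gene beside Cycs that is not on it, held 1 member with 3 reads. Members inside or within 10 kb of the 8 numbered 64, and plasmid pool sites 2. Among the 12 genes of the Hoxa list (Evx1 included), homeobox genes that pattern the body axis, 1 held members. This was Hoxa3, with 2 intronic sites at 870.3 and 876.2 kb and 2 reads each, both also inside Gm28308 and the antisense gene Hoxaas3, and the plasmid pool had 1 site inside or within 10 kb of the list. Hoxa6 to Hoxa13 and Evx1, which lie further above, had no member within 10 kb, and the stretch of 486.1 kb that starts at the last Hoxa3 site held 10 plasmid pool sites and no member. Of 5 chosen genes at the Nanog locus, listed for pluripotency, Slc2a3, a glucose transporter gene, held 1 site with 1 read. Nanog, Dppa3, Gdf3 and Apobec1 had none, and the plasmid pool also had 1 site inside or within 10 kb of the 5. The list is not all the pluripotency genes of the chromosome, and not every gene on it is one.

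The median of reads was highest at sites 100 to 300 kb from home. The 60 sites there had a median of 3 reads and included 7 of the 11 members with at least 10 reads. The share with at least 5 reads was 23.3% there, 20% from 300 kb to 1 Mb and 21.3% beyond 10 Mb. These ranges were not tested against each other. The 46 sites nearer than 100 kb had at most 9 reads. All 11 lay above the fitted position, 9 of them within 1 Mb, 10 inside genes, and they took 187 reads, or 23.7% of those on the chromosome.

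The site with the most reads, 38, was at 51464654 in a noncoding exon of Hnrnpa2b1, and a second one in that gene, at 51465504, had 12. Intronic sites of Skap2, at 52011605, and of Cbx3, at 51473445, followed with 35 and 22 reads. An intronic site of Snx10 at 51527938 had 13 reads. Nfe2l3 had 10 at both 51451618 and 51457145. A site at 51460363, 0.569 kb beyond the 3′ end of Hnrnpa2b1 and outside any gene, had 10, and 52019271 in Gm44077 had 11. The 2 sites far from home were 119188881, in introns of the calcium channel gene Cacna1c and the decapping gene Dcp1b, with 15 reads, and 120287958 in an intron of the glycosyltransferase gene B4galnt3 with 11.

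**Figure D3:**
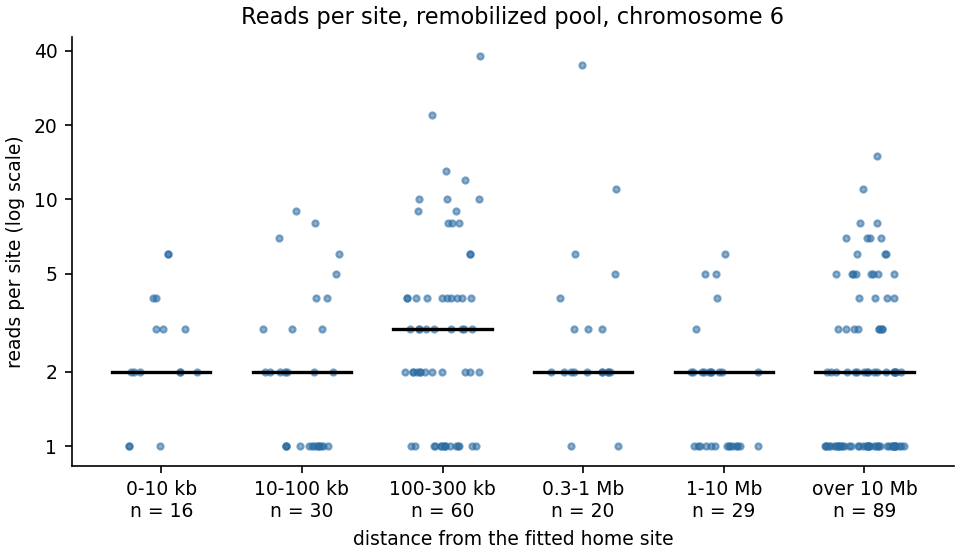
Reads per site (log axis) of the 244 members, all from the remobilized pool, in 6 ranges of distance, 1 point per site, with the median of each range as a line. The median is 3 reads from 100 to 300 kb and 2 in the other ranges.

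Members had at least 3 reads in 38.5% of cases (94 of 244), against 21.0% of 1755 in the plasmid pool (two-sided Fisher's exact test, odds ratio 2.35, 1.75 to 3.15, adjusted p over 3 tests 2.76e-08). The plasmid pool spread its reads over far more sites, and the part this plays was not tested. Within the remobilized pool the share was 46.0% of the 126 sites within 1 Mb and 30.1% of 502 sites on other chromosomes (adjusted p 0.00149 by Fisher's exact test). That call was lost with a limit of 5 reads (19.8% against 13.9%, Fisher's exact test, adjusted p 0.188) and among sites with at least 2 reads (62.4% against 55.7%, adjusted p 0.415). Sites within 1 Mb and beyond 10 Mb on chromosome 6 (46.0% and 34.8%) did not differ past the threshold (Fisher's exact test, adjusted p 0.122). This comparison moved with the settings. It passed with positions within 1 kb merged (51.1% against 36.0%, adjusted p 0.0485 by Fisher's exact test), and its direction turned among sites with at least 2 reads (-2.22 points) and with a limit of 5 reads (-1.51 points).

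The next question was how far along chromosome 6 the excess reached. For this, sites in each band of distance were set against sites on other chromosomes, of which the remobilized pool had 502 and the plasmid pool 29391, sequences outside the autosomes, X and Y included (2 and 257 sites). On other chromosomes there were 1.71 sites of the remobilized pool per 100 of the plasmid pool. The value was 741.2 up to 1 Mb, 13.3 from 1 to 10 Mb, 8.78 from 10 to 20 Mb, 6.35 from 20 to 40 Mb and 4.55 beyond 40 Mb.

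With both sides of home pooled, every band exceeded the other chromosomes by two-sided Fisher's exact test, adjusted over the 5 bands. Up to 1 Mb the odds ratio was 433.2 (257.7 to 773.1, adjusted p 7.22e-196). From 1 to 10 Mb it was 7.79 (5.04 to 11.6, adjusted p 2.27e-15). From 10 to 20 Mb it was 5.14 (3.17 to 7.97, adjusted p 2.33e-09) on 23 sites, and from 20 to 40 Mb 3.72 (2.47 to 5.42, adjusted p 5.00e-09) on 31. Beyond 40 Mb, 35 sites gave 2.66 (1.82 to 3.78, adjusted p 1.52e-06). The intervals of neighbouring bands from 1 Mb outward overlap, and differences between bands were not tested. The sides, which were not tested separately, were unlike. Above home the members per 100 plasmid pool sites were 9.26 from 1 to 10 Mb and 4.96 from 10 to 20 Mb. Farther up they were 10.6 from 20 to 40 Mb (26 and 246 sites) and 4.93 beyond 40 Mb (33 and 670). Below home they were 17.3 from 1 to 10 Mb, 12.1 from 10 to 20 Mb, 2.07 from 20 to 40 Mb (5 and 242) and 2.00 beyond (2 and 100). The values beyond 20 Mb on the lower side were thus close to the 1.71 of other chromosomes. The 18 other autosomes ranged from 0.941 to 3.66 sites per 100 of the plasmid pool, with chromosome 19 highest and chromosome 11 at 3.59, all below the value of 4.55 found beyond 40 Mb.

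**Figure D4:**
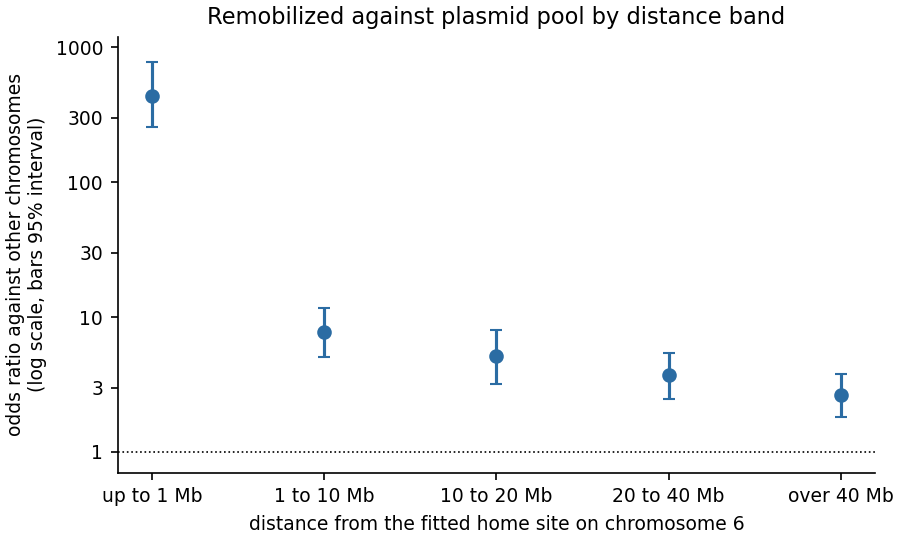
Odds ratio (log axis) of chromosome 6 sites in each band of distance from the fitted home site against sites on other chromosomes, remobilized against plasmid pool, with 95% intervals as bars and 1 as a dotted line. The value falls from 433.2 up to 1 Mb to 2.66 beyond 40 Mb, and each interval lies above 1.

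The 89 sites beyond 10 Mb, 65 above and 24 below, were unevenly placed along the chromosome. In steps of 10 Mb they were most frequent, relative to the plasmid pool, from 10 to 20 Mb below (17 sites, 12.1 per 100 of the plasmid pool) and from 70 to 80 Mb above (11 sites, also 12.1). Steps from 20 to 30 and from 30 to 40 Mb above held 13 sites each (10.8 and 10.3 per 100). The step from 50 to 60 Mb above held 0 members and 102 plasmid pool sites, and that from 30 to 40 Mb below 0 and 112. A count of 0 of 244 allows a share of up to 1.23%. The 2 longest stretches without a member ran from 27.8 to 42.6 Mb below, with 169 plasmid pool sites and 35 protein-coding genes inside, and from 47.5 to 62.1 Mb above, with 150 and 39. These stretches were chosen for their length, and no test was made of them.

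**Figure D5:**
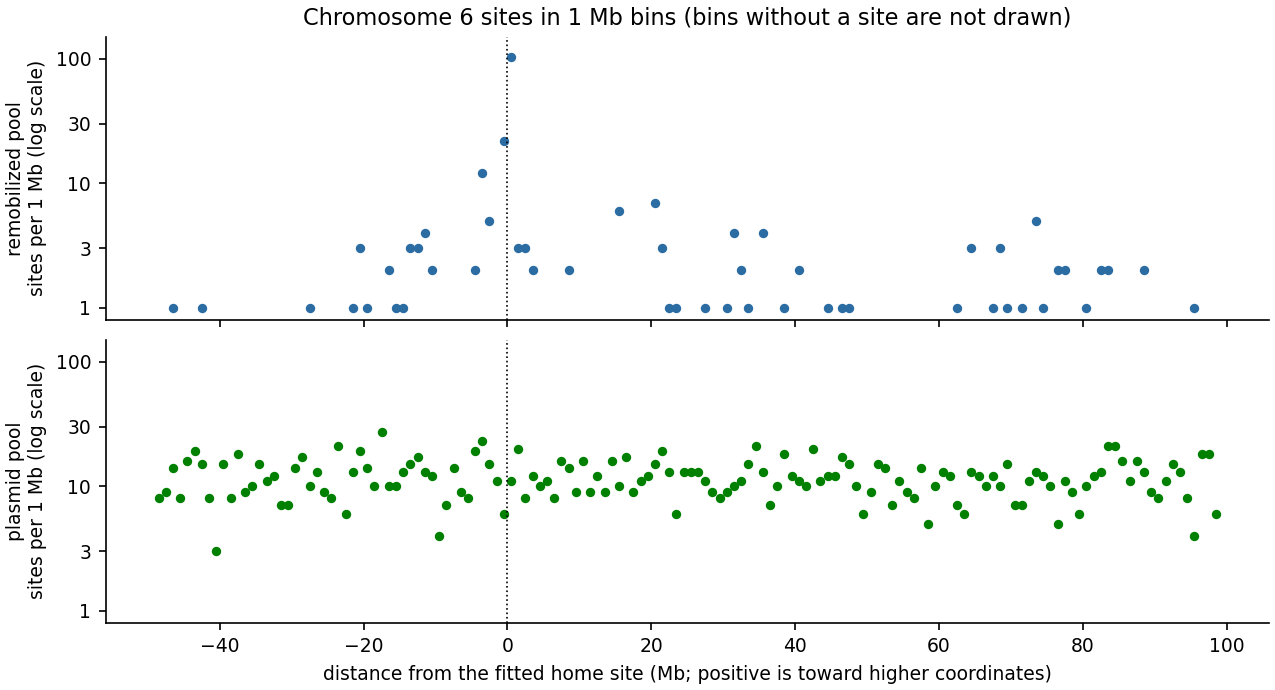
Number of sites in 1 Mb bins (log axis) along chromosome 6 for the remobilized pool (upper panel) and the plasmid pool (lower panel), against signed distance from the fitted home site (Mb). Bins without a site are not drawn. The bins next to home hold 22 and 104 members, and each of the plasmid pool's 146 whole bins holds between 3 and 27 sites.

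Some far members lay near one another. Runs were not formed in the plasmid pool, so whether this grouping exceeds that of an equal number of its sites was not tested. When sites up to 300 kb apart were joined into runs, a distance chosen after the data were seen, 11 runs of at least 3 sites held 50 of the 89 sites beyond 10 Mb, and 27 sites stood alone. The run with the most sites, 7 in 356.6 kb, lay 20.1 to 20.5 Mb above home over Rmnd5a, Chmp3, Kdm3a and Reep1, where the plasmid pool had 5. Chmp3 acts in membrane remodelling and Kdm3a is a histone H3 lysine 9 demethylase. A run of 6 sites, 15.7 to 16.0 Mb above, covered Gm38825 and Il12rb2, an interleukin receptor gene, with 2 plasmid pool sites. Another 6 sites lay 73.6 to 74.1 Mb above, over Cd4, the T cell coreceptor gene, Ltbr and Plekhg6, with 8 plasmid pool sites. Below home, 5 sites lay 11.8 to 12.1 Mb away over Slc37a3 and Dennd2a, with 5 plasmid pool sites. Nearer than 10 Mb, 13 sites in 800.9 kb lay 3.24 to 4.04 Mb below home, over the end of Cntnap2, Cul1, a cullin of ubiquitin ligases, and the zinc finger genes Zfp786 and Zfp746. The plasmid pool had 23 sites there.

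The outermost members were 46.4 Mb below home, in an intron of Ppp1r9a with 1 read, and 95.8 Mb above, in the coding exon of Mansc4 printed above, with 7 reads.

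By gene context, 131 of the 244 sites (53.7%, 47.2 to 60.1) lay inside an annotated gene, and 51.7% of 1755 plasmid pool sites did (adjusted p over 3 tests 0.585, two-sided Fisher's exact test). Introns held 115, exons 16, and 113 sites lay outside genes. Protein-coding genes held 110 and lncRNA genes 20 of those inside. In all, 83 genes were hit, 62 of them protein-coding, and 64 of the 83 had 1 site.

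Near and far members differed in context by less than the tests could call. Within 1 Mb 47.6% lay in genes, where genes cover 34.9% of the bases, and beyond 10 Mb 62.9% did, where genes cover 48.3% (difference -15.3 points, Fisher's exact test, adjusted p 0.0942). Beyond 10 Mb the plasmid pool had 52.3% in genes (difference 10.6 points, adjusted p 0.0942 by Fisher's exact test). With genes extended by 5 kb on each side both differences were past the threshold. The share beyond 10 Mb was then 80.9% for members and 63.4% for the plasmid pool (adjusted p 0.00176 by Fisher's exact test), and the share of members within 1 Mb was 62.7% (adjusted p 0.00622 against those beyond 10 Mb). Over the whole chromosome the extended share was 71.7% against 62.7% (Fisher's exact test, adjusted p 0.00680). With at least 5 reads per site, 84.2% of 19 members beyond 10 Mb lay in genes, against 52.9% of 104 in the reference (adjusted p 0.0353 by Fisher's exact test). With protein-coding genes only the differences were smaller, at 49.4% against 47.0% beyond 10 Mb (2.40 points, adjusted p 0.682 by Fisher's exact test) and -7.37 points between near and far members (adjusted p 0.682). Without the 16 members within 10 kb, near and far differed by -8.38 points (Fisher's exact test, adjusted p 0.250).

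The plus strand held 127 of the 244 sites (52.0%), against 50.9% in the plasmid pool (two-sided Fisher's exact test, adjusted p over 3 tests 1). Within 1 Mb it held 57.1% and beyond 10 Mb 48.3% (difference 8.83 points, Fisher's exact test, adjusted p 0.643), and within 1 Mb 56.7% above and 59.1% below the fitted position (adjusted p 1 by Fisher's exact test). The direction of the last difference turned with positions within 1 kb merged (63.8% above and 52.6% below) and at 5 or more reads (15.2 points higher above, with 2 sites below), neither past the threshold. What the strand column marks, the transposon or the read, is not given in the sources used here.

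Inside genes, sites were compared with the strand of the gene, leaving out the 9 members in genes of both strands. Of the other 122, 69 (56.6%, 47.3 to 65.5) had the strand of the gene, against 47.5% of 867 in the plasmid pool (two-sided Fisher's exact test, odds ratio 1.44, 0.965 to 2.15, p 0.0663). With protein-coding genes only, the difference of 11.2 points was past the threshold (58.3% of 108 against 47.2% of 814, Fisher's exact test, p 0.0315). Among sites with at least 2 reads the difference was 5.35 points (Fisher's exact test, p 0.395), and with positions within 1 kb merged 7.80 points (p 0.168). From 100 to 300 kb the 4 neighbouring genes gave 32 sites on the gene's strand and 13 on the other. All 5 sites of Hnrnpa2b1, a minus-strand gene, and all 3 of Cbx3, a plus-strand gene, had the gene's strand, and Snx10 had 14 and 6, Nfe2l3 10 and 7. From 300 kb to 1 Mb 3 sites had the gene's strand and 7 the other, with Skap2 at 2 and 3 and Gm44077 at 1 and 3. From 1 to 10 Mb the counts were 9 and 6, and beyond 10 Mb 25 and 27.

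The clones were also set beside the members. Of the 9 clone insertions on chromosome 6, 4 were members at the same base and strand, those of the 5kb, 134kb, 260kb and 73Mb clones, with 3, 10, 1 and 1 reads in the pool. The site of the 20kb clone was 72 bp from a member on the other strand, that of the 70kb clone 0.778 kb and that of the 55kb clone 2.21 kb from the nearest member. The 12Mb and 2Mb clones lay 10.9 and 27.5 kb from one. Within 10 kb of the 5kb clone there were 16 members, of the 134kb clone 14 and of the 55kb clone 7. The plasmid pool had 2 sites within 10 bp of a member, at 37573229 (3 reads there, 1 in the remobilized pool) and at 132076657 (6 and 2), both outside genes.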

How the data were processed

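Per the labels' protocols, genomic DNA was transcribed by T7 RNA polymerase and the RNA made into stranded total RNA libraries. The authors deposited 1 table per library, listing single-base positions with their strand and read count. Reads that had no position shared 1 line. The counts are whole numbers with no normalization stated. FastQC, BWA and deepTools and the build mm10 are named in the submitters' processing notes. Duplicate handling and filters are not given in the sources used here, nor is the way reads from both copies of chromosome 6 were treated.

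Positions are 1-based. Annotation was GENCODE M21 (GRCm38, the build of mm10), and the last plasmid pool site on chromosome 6 lay 16.3 kb before the end of the last annotated gene. Lines within 10 bp were joined. The home position was the base at which the distances to the 9 clone sites came closest to the clone names, by the sum of absolute differences of their log10 values. Exonic bases came from annotated transcripts with at least 8 bases of exon to either side, and no genome sequence was used here.

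Shares were compared by two-sided Fisher's exact tests with conditional odds ratios and 95% intervals (scipy 1.17.1), shares carry exact Clopper-Pearson intervals, and p-values were adjusted by the Benjamini-Hochberg method inside each family, with a threshold of 0.05. The limit allowed by a count of 0 was taken as 3 counts. The merging, the fit, the annotation and the tests were tested on simulated data. Named sites are those with the most reads (11, since 3 shared the last places of 10), the 5 nearest on each side, those shared with a clone or the plasmid pool, the outermost, and genes with 3 or more sites. Sequences were printed for protein-coding exonic sites with the most reads, up to 8, and 1 of these and 1 site near a listed gene are not reported here. Members, lists and tests were chosen with earlier results of these data known. Alternatives were other merging distances, minimum reads, home positions, gene sets, limits and the leaving out of sites.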

Additional observations from a re-analysis of the deposited data

Results flagged for a closer look

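Reads without a genomic position numbered 503 in the remobilized pool, 19.2% of its reads, against 1 read in the control without transposons, and they enter none of the comparisons above. In the plasmid pool they were 19.5% of 78338 reads. Their source was not tested. No group had the 4 libraries that a search for an outlying sample needs.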

How the results depend on the processing

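Of 171 recomputed values of the 22 tests, 154 kept their direction and their side of the threshold. This tally includes distance and band values with home at the most-read member or at the densest window. Those positions were picked from the members, so an excess near them was built in and these values give no support. The 11 tests past the threshold kept it in every alternative but 3. Within 10 kb the difference was 4.26 points among sites with at least 5 reads, and the share with 3 or more reads within 1 Mb exceeded other chromosomes by 6.65 points among sites with at least 2 reads and by 5.90 points with a limit of 5. Of the 11 others, 6 values passed it. These were near against far reads with positions within 1 kb merged (15.1 points), genes beyond 10 Mb at 5 or more reads (31.3), orientation in protein-coding genes (11.2) and, with genes extended by 5 kb, all 3 context differences (8.99, -18.2 and 17.5). Directions turned in 8 cases, none past the threshold. They were strand above against below with 1 kb merging (11.1) and with at least 5 reads (15.2), strand against the plasmid pool at 5 reads (-1.05), near against far reads among sites with 2 or more (-2.22) and with the limit of 5 (-1.51), the side within 1 Mb with home at the most-read site (-27.9), protein-coding genes only (-1.41), and TA at the commonest offset (-5.56). The cause was not tested. The test of 3 reads was not run among sites with at least 5, where it is void. No paired analysis was possible because each group had 1 library. Bases were read at 16 of 244 sites only, because no genome sequence was used, and the reference near home is 17 sites.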
